A study of Mus musculus with 13 samples.

Results

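The genes described here are 9 that control proteolysis outside the cell: Plau and Plat, which encode the urokinase and tissue types of plasminogen activator, Plaur, the urokinase receptor, Serpine2, a serine protease inhibitor, the matrix metalloproteases Mmp2 and Mmp14, and the metalloprotease inhibitors Timp1, Timp2 and Timp3. They were found by matching Ensembl identifiers to their symbols in GENCODE M21, and are 9 of the 55416 genes counted. They were chosen by how their levels differed between the groups in earlier results of these same 13 libraries, so their own values are given as a description with no p-value, and how many of them passed the fit over all genes is printed only beside the share of all genes that did. Genes that lie opposite them on the other strand, and lists of other proteases and inhibitors, were tested. The lists were also chosen with earlier results of these data known, so their counts and p-values are a description too.

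Polyadenylated RNA was sequenced from mouse tissue in 3 groups. PDGFB tumors (5 samples, genotype PDGFB-shP53) were glioblastomas from a lentivirus that expresses PDGFB, a growth factor, together with a short hairpin RNA against p53. RAS tumors (5 samples, genotype HrasV12-shp53) came from a virus that carries HRasV12, an oncogenic RAS, with the same kind of hairpin. Virus was injected into motor cortex, and the hosts were CNP-Cre mice, whose Cre recombinase is expressed from the oligodendrocyte gene Cnp, and GFP+ tissue was collected from 5 mice of each tumor group at their endpoint. Normal brain (3 samples, genotype WT) is labelled by tissue only: neither its region nor its number of animals is given, and it is not stated whether it is the tissue trimmed from tumors. The title of normal brain 3 starts with MBT where the titles of normal brain 1 and 2 start with NBT, and its group was taken from its tissue label. The titles of normal brain 1 to 3 end in M1, F1 and F2, and what these endings mark is not stated. Ages are not given either. All p-values therefore measure the spread between these samples, which for normal brain may be technical.

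Plasminogen activators cut plasminogen, an abundant plasma protein, into plasmin, a protease that digests fibrin and matrix proteins and can activate metalloprotease precursors. Urokinase acts mainly at the cell surface, where its receptor holds it, and serpins block both activators. Mmp14 sits in the cell membrane and activates the secreted Mmp2 with the help of Timp2, while TIMP proteins at higher amounts inhibit metalloproteases. In the brain these genes are known for roles in synaptic plasticity, in the vessel barrier and in the invasion of gliomas.

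Reads counted for genes ranged from 529162 to 643055 per library, which is 4.24% to 4.75% of the uniquely mapped reads. The setting for strand in the count is not given in the sources used here. Of all reads counted for genes, 84.0% stood under the 16.1% of genes with an exon that overlaps an exon of a gene on the other strand. If the count was made with the setting for the opposite strand, reads under a gene could belong to the gene on its other strand, which was not tested. A gene name below therefore means the reads deposited under it, and "opposite" with a name gives the gene whose exons it overlaps. Levels are normalised CPM, the reads of a gene per 1000000 reads counted for genes on totals scaled by the TMM method, and 1 read is worth 1.46 to 2.01 CPM. On the first principal component of all tested genes, which held 55.5% of the variance, RAS tumor 2 lay at -10.5, against -51.9 to -70.9 for the other RAS tumors and -10.6 to 14.3 for the PDGFB tumors. It stood apart from its group, and values of the 9 genes and of the lists are given with and without it.

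Markers of the labelled tissues were read in every group. All markers of neurons, mature oligodendrocytes and astrocytes had reads in normal brain. The 10 neuron markers, summed, reached 230 to 617 CPM in PDGFB tumors, 3961 to 8867 CPM in RAS tumors and 5670 to 6191 CPM in normal brain. All 10 fell in PDGFB tumors against normal brain, and 8 of 10 fell in RAS tumors against normal brain. Of all tested genes, 23.1% and 28.1% fell in these comparisons. The neurofilament genes Nefm and Nefl lie opposite each other, and Nefm alone averaged 5175 CPM in RAS tumors and 4383 CPM in normal brain. The 6 markers of oligodendrocyte precursors reached 504 to 719 CPM in PDGFB tumors, 94.7 to 300.3 CPM in RAS tumors and 47.7 to 66.5 CPM in normal brain. All 6 rose in PDGFB tumors over normal brain, and 3 of 6 rose in RAS tumors, beside 22.2% and 28.0% of all tested genes. In bulk tissue, fewer cells of a type and less RNA per cell cannot be told apart, and this holds for every level below.

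In GENCODE M21 (GRCm38), 7 of the 9 genes have no gene on the other strand: Plau (ENSMUSG00000021822, chr14:20836660-20843385, plus strand), Plaur (ENSMUSG00000046223, chr7:24462484-24475968, plus strand), Plat (ENSMUSG00000031538, chr8:22757727-22782844, plus strand), Serpine2 (ENSMUSG00000026249, chr1:79794197-79861180, minus strand), Timp2 (ENSMUSG00000017466, chr11:118301069-118355740, minus strand), Mmp2 (ENSMUSG00000031740, chr8:92827291-92853420, plus strand) and Mmp14 (ENSMUSG00000000957, chr14:54431612-54445364, plus strand). Timp1 (ENSMUSG00000001131, chrX:20870166-20874735, plus strand) lies opposite an intron of the synapsin gene Syn1 and shares no exon with it. Timp3 (ENSMUSG00000020044, chr10:86300372-86349506, plus strand) shares exon sequence with Syn3 on the other strand. All 9 passed the low-count filter.

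Promoter windows of RefSeq (GRCm38.p6), which run from 250 bases before to 50 bases after a gene's start, were held for 6 of the 9 genes: Plaur, Serpine2, Timp1, Timp2, Timp3 and Mmp14. They were searched on both strands for TGANTCA, the core of the site bound by AP-1 factors, and for TGAGTAA, a variant of that core known from the Timp1 promoter. Stretches with the match in capitals, both on the plus strand, are shown for Plaur and Timp1, whose windows held the only matches. The Plaur stretch is chr7:24462388-24462446, with the first base of the match at -69 from the start, and the Timp1 stretch is chrX:20870183-20870207, with the first base of the match at 27 after it.
Plaur: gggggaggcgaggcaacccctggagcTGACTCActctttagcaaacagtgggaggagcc
Timp1: gtgggtggaTGAGTAAtgcgtccag
TGANTCA was in 7.81% of all 32851 promoter windows and TGAGTAA in 2.68%. Since TGAGTAA was chosen as a motif known from Timp1, its match there follows from that choice, and nothing is read from its share. The windows of Serpine2, Timp2, Timp3 and Mmp14 held neither motif. Windows follow the RefSeq start, which can differ from the GENCODE M21 start. Those of Serpine2 (chr1:79858616-79858915) and Timp2 (chr11:118355362-118355661) do not reach the GENCODE 5′ ends at 79861180 and 118355740. A match here is a string of letters, not a shown binding site.

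The urokinase gene Plau was almost confined, among these 13 libraries, to RAS tumors. It had 1, 0, 0, 2 and 0 reads in PDGFB tumors 1 to 5, 41, 24, 32, 53 and 136 reads in RAS tumors 1 to 5, and 0, 1 and 0 reads in normal brain 1 to 3. On the CPM scale that was 63.9, 39.6, 56.2, 87.5 and 230.1 CPM in the RAS tumors, with at most 3.19 CPM in any PDGFB tumor and 2.01 CPM in any normal brain. Every RAS tumor lay above every other library, RAS tumor 5 was the highest by a wide margin, and RAS tumor 2 was the lowest of its group. The ratio of RAS tumors to normal brain, from 286 reads against 1, was 155 (95% counting interval 27.7 to 6161), and the level in RAS tumors was 102 times that in PDGFB tumors (34.7 to 499.7). Without RAS tumor 5 the ratio to normal brain was 101 (17.9 to 4032) and that to PDGFB tumors 66.8 (22.4 to 328), and without RAS tumor 2 they were 178 (31.7 to 7067) and 117 (39.8 to 573). No fold is given for PDGFB tumors over normal brain, where both groups held 3 reads or fewer.

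Its receptor gene Plaur had fewer reads and was likewise highest in RAS tumors. PDGFB tumors 1 to 5 had 1, 0, 1, 3 and 6 reads, RAS tumors 1 to 5 had 10, 7, 15, 15 and 19 reads, and the 3 normal brains had none. All RAS tumors exceeded all PDGFB tumors (11.6 to 32.1 CPM against 0 to 9.36 CPM), and RAS tumor 2 was again the lowest. For folds over normal brain, 3 reads over the normal group were taken as the limit that 0 reads allow, and the tumor reads as exact. Plaur was then at least 11.96-fold higher in RAS tumors than in normal brain (at least 13.4-fold without RAS tumor 2). On the same terms the ratio of PDGFB tumors to normal brain was at least 1.85. That value leaves out the counting error of the 11 PDGFB reads. PDGFB tumors overlapped normal brain, since PDGFB tumor 2 had 0 reads. Its log2 fold change in PDGFB tumors over RAS tumors was -2.62 ± 0.60 (SE), or -2.84 without RAS tumor 2 and -3.41 without PDGFB tumor 5.

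Plat, the activator best known for dissolving clots and also made by neurons and microglia, was present in both kinds of tumor. It had 36.4, 37.8, 37.1, 17.5 and 15.6 CPM in PDGFB tumors 1 to 5, 82.6, 52.8, 68.5, 74.3 and 89.7 CPM in RAS tumors 1 to 5, and 3.61, 4.03 and 8.51 CPM in normal brain 1 to 3. The 3 groups did not overlap, with RAS tumors highest and normal brain lowest. The log2 fold change was 2.36 ± 0.48 (SE) in PDGFB tumors over normal brain, 3.70 ± 0.45 in RAS tumors over normal brain (3.87 without RAS tumor 2) and -1.34 ± 0.29 in PDGFB tumors over RAS tumors (-1.50 without RAS tumor 2). Normal brain held 9 Plat reads in all, and without normal brain 3 the log2 fold changes over normal brain were 2.87 for PDGFB tumors and 4.23 for RAS tumors.

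Per kb of exon, the balance of the 2 activators differed between the tumors. Plau made up 0% to 32.4% of their summed level in PDGFB tumors (median 0%), 66.4% to 87.1% in RAS tumors (median 68.4%) and 0% to 56.9% in normal brain (median 0%), where the highest value rests on 1 Plau read. In every RAS tumor Plau was the larger of the 2, and in every PDGFB tumor Plat was.

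**Figure D1:**
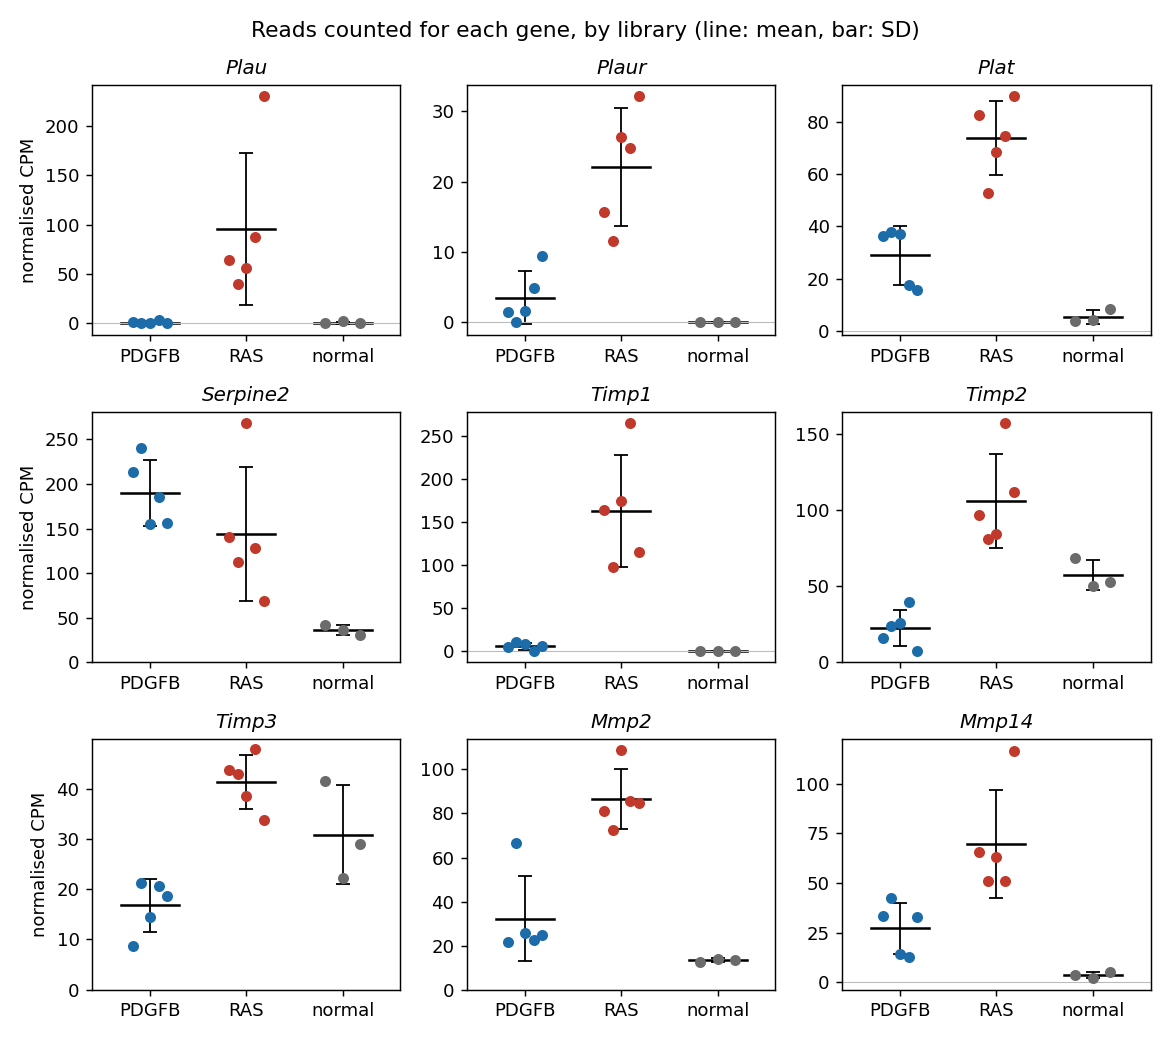
Normalised CPM of the 9 genes, 1 panel each, with a point for each of 5 PDGFB tumors, 5 RAS tumors and 3 normal brains, a line for the group mean and a bar for its SD. Plau and Timp1 lie near 0 outside the RAS tumors, and the highest Plaur value of a PDGFB tumor (9.36 CPM) is below the lowest of a RAS tumor (11.6 CPM). Serpine2 overlaps between the tumor groups, and Timp2 and Timp3 have their lowest values in PDGFB tumors.

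Serpine2, or protease nexin-1, inhibits thrombin and both plasminogen activators and is made by glia. It was the member whose tumor groups overlapped. It had 213.9, 240.3, 154.7, 185.0 and 156.0 CPM in PDGFB tumors 1 to 5, 140.4, 112.2, 268.7, 128.8 and 69.4 CPM in RAS tumors 1 to 5, and 41.5, 36.3 and 30.7 CPM in normal brain 1 to 3. All 10 tumors lay above all normal brains. The highest single value was RAS tumor 3, while the other RAS tumors lay below every PDGFB tumor. Serpine2 had a log2 fold change of 2.39 ± 0.37 (SE) in PDGFB tumors over normal brain, 1.99 ± 0.36 in RAS tumors over normal brain (2.14 without RAS tumor 2) and 0.40 ± 0.27 in PDGFB tumors over RAS tumors (0.26 without RAS tumor 2 and 0.71 without RAS tumor 3).

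Of the metalloproteases, Mmp2 (gelatinase A) averaged 32.3 ± 19.2 CPM in PDGFB tumors (SD, n = 5), 86.6 ± 13.5 CPM in RAS tumors (SD, n = 5) and 13.5 ± 0.745 CPM in normal brain (SD, n = 3). The range was 21.8 to 66.5 CPM in PDGFB tumors, 72.6 to 108.9 CPM in RAS tumors and 12.6 to 14.1 CPM in normal brain, so the groups did not overlap. PDGFB tumor 2 alone, at 66.5 CPM, came close to the RAS tumors, and the other PDGFB tumors reached 25.8 CPM at most. The log2 fold change was 1.25 ± 0.42 (SE) in PDGFB tumors over normal brain, and 0.73 without PDGFB tumor 2. It was 2.67 ± 0.41 in RAS tumors over normal brain (2.80 without RAS tumor 2) and -1.41 ± 0.29 in PDGFB tumors over RAS tumors (-1.53 without RAS tumor 2, -1.89 without PDGFB tumor 2).

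Mmp14, the membrane protease that activates Mmp2, averaged 27.2 ± 12.9 CPM in PDGFB tumors (SD, n = 5), 69.6 ± 27.2 CPM in RAS tumors (SD, n = 5) and 3.58 ± 1.55 CPM in normal brain (SD, n = 3). Its groups did not overlap either, with 12.8 to 42.3 CPM in PDGFB tumors, 51.2 to 116.7 CPM in RAS tumors and 2.01 to 5.11 CPM in normal brain. Mmp14 had a log2 fold change of 2.83 ± 0.59 (SE) in PDGFB tumors over normal brain, 4.18 ± 0.56 in RAS tumors over normal brain (4.34 without RAS tumor 2) and -1.34 ± 0.33 in PDGFB tumors over RAS tumors (-1.49 without RAS tumor 2). Per kb of exon, Mmp2 made up 53.6% to 75.9% of the sum of both genes in PDGFB tumors, 56.2% to 75.3% in RAS tumors and 82.5% to 92.5% in normal brain. That balance overlapped between the tumor groups and was above both in normal brain, whose Mmp14 reads numbered 6 in all.

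Timp1, Timp2 and Timp3 differed from each other in their pattern. Timp1, the family member best known as inducible in injury and inflammation, had 3, 7, 5, 0 and 4 reads in PDGFB tumors 1 to 5, 105, 59, 99, 160 and 68 reads in RAS tumors 1 to 5, and none in the 3 normal brains. The RAS tumors held 164, 97.4, 174, 264 and 115.1 CPM, against at most 10.6 CPM in a PDGFB tumor, and RAS tumor 2 was the lowest of them. With the tumor reads taken as exact, Timp1 was at least 89.0-fold higher in RAS tumors than in normal brain (at least 97.97-fold without RAS tumor 2). On the same terms the ratio of PDGFB tumors to normal brain was at least 3.20, where 3 reads over the 3 libraries would be 1.83 CPM. That ratio leaves out the counting error of the PDGFB reads. PDGFB tumors overlapped normal brain, since PDGFB tumor 4 had 0 reads. For PDGFB tumors over RAS tumors the log2 fold change was -4.75 ± 0.44 (SE), or -4.95 without RAS tumor 2.

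Timp2, a constitutive inhibitor that is abundant in brain, was lower than normal brain in one kind of tumor and higher in the other. It had 16.0, 24.2, 25.8, 39.9 and 7.80 CPM in PDGFB tumors 1 to 5, 96.7, 80.9, 84.3, 156.9 and 111.7 CPM in RAS tumors 1 to 5, and 68.6, 50.4 and 52.8 CPM in normal brain 1 to 3. No library of one group entered the range of another. Timp2 had a log2 fold change of -1.33 ± 0.37 (SE) in PDGFB tumors over normal brain, 0.89 ± 0.36 in RAS tumors over normal brain (1.05 without RAS tumor 2) and -2.22 ± 0.32 in PDGFB tumors over RAS tumors (-2.37 without RAS tumor 2).

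Timp3 is the family member that binds to matrix and also inhibits ADAM proteases. By the reads under its name, it had the lowest level per kb of exon of all 9 genes in RAS tumors. It is also the only one of the 9 with an exon opposite an exon of another gene, Syn3, which held 198 CPM per kb in RAS tumors. Whether the rank of Timp3 depends on the strand setting was not tested. It had 8.73, 21.2, 14.5, 20.7 and 18.7 CPM in PDGFB tumors 1 to 5, 43.7, 42.9, 38.6, 47.9 and 33.8 CPM in RAS tumors 1 to 5, and 41.5, 22.2 and 28.9 CPM in normal brain 1 to 3. PDGFB tumors lay below all other libraries, and RAS tumors overlapped normal brain. The log2 fold change was -0.88 ± 0.34 (SE) in PDGFB tumors over normal brain, 0.42 ± 0.32 in RAS tumors over normal brain (0.48 without RAS tumor 2) and -1.30 ± 0.29 in PDGFB tumors over RAS tumors (-1.35 without RAS tumor 2).

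Per kb of exon, Timp1 made up 0% to 62.0% of the summed level of Timp1, Timp2 and Timp3 in PDGFB tumors (median 51.9%), 79.8% to 88.1% in RAS tumors (median 85.9%) and 0% in normal brain. Timp2 made up 17.7% to 80.1% in PDGFB tumors, 9.74% to 17.7% in RAS tumors and 77.5% to 82.6% in normal brain. For Timp3 the share was 10.2% to 20.3% in PDGFB tumors, 1.71% to 3.88% in RAS tumors and 17.4% to 22.5% in normal brain. Of these 3 genes, Timp1 held the largest share in RAS tumors and Timp2 in normal brain. Timp3 shares exon sequence with Syn3 on the other strand. How far the 3 shares depend on the strand setting was not tested. The remaining family member, Timp4, whose exons lie opposite Syn2, is not in this sum. Its level was 29.6 ± 14.4 CPM per kb in PDGFB tumors (SD, n = 5) and 11.2 ± 19.0 CPM per kb in RAS tumors (SD, n = 5). In normal brain it was 172 ± 15.8 CPM per kb (SD, n = 3), above Timp2, which has no gene opposite. Over all libraries, read density was 187 per kb where an exon lies opposite an exon, as in Timp4. Where no gene lies opposite, it was 13.2 per kb. Whether the order of Timp4 and Timp2 comes from this difference was not tested. In the shares of Timp1, Timp2 and Timp3, PDGFB tumors varied most. PDGFB tumor 4, with no Timp1 read, had the shares of Timp2 and Timp3 seen in normal brain.

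**Figure D2:**
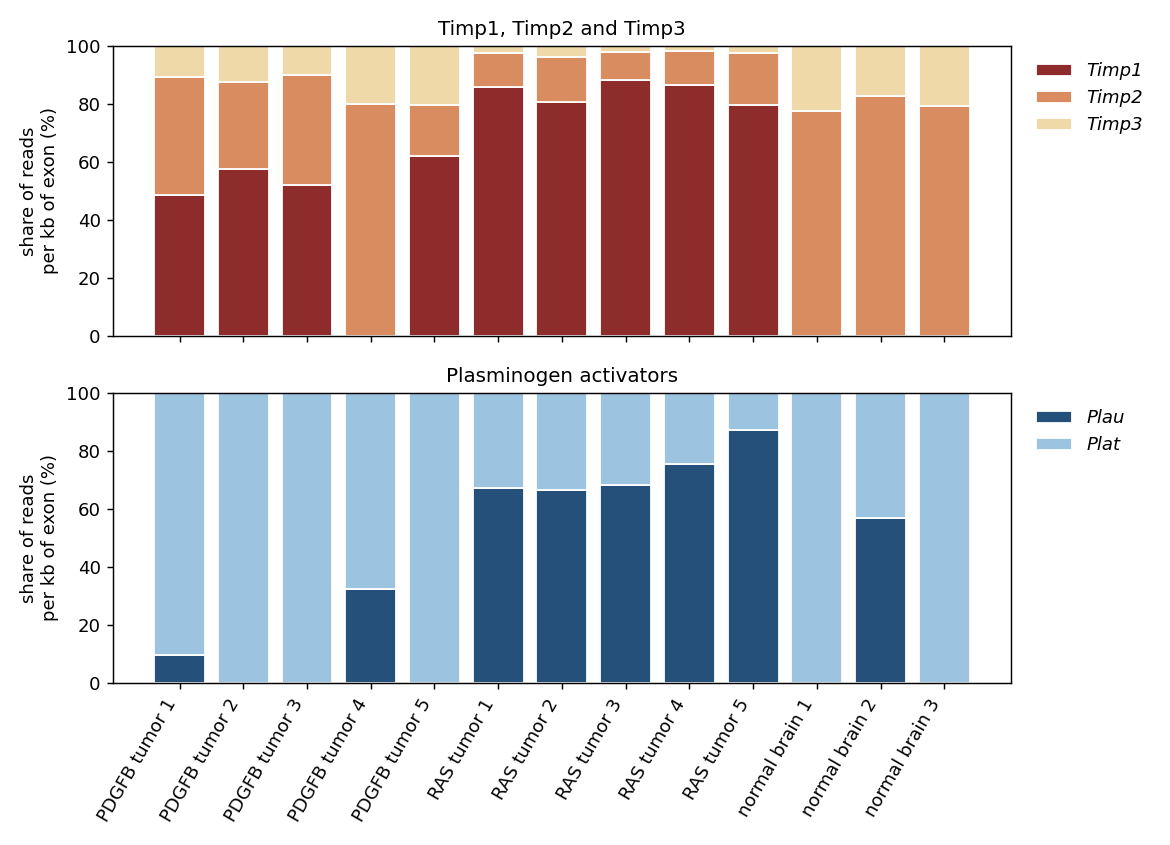
Share of the summed level per kb of exon, in percent, taken by Timp1, Timp2 and Timp3 and by each plasminogen activator, as stacked bars for each of the 13 libraries. Timp1 fills 79.8% to 88.1% of the bar in RAS tumors and is missing in normal brain, and Plau fills 66.4% to 87.1% of the activator bar in RAS tumors.

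The order of levels per kb of exon differed between groups. In PDGFB tumors Serpine2 was the highest of the 9 genes at 22.9 ± 4.48 CPM per kb (SD, n = 5), above Mmp2 at 9.57 ± 5.69 CPM per kb by more than their spread. After it came Timp1 (6.59), Timp2 (5.83), Plat (4.63), Mmp14 (4.56), Timp3 (2.06), Plaur (1.32) and Plau (0.392 CPM per kb), where each neighbouring pair except Mmp14 and Timp3 differed by less than the larger SD of the pair. In RAS tumors Timp1 was the highest at 183 ± 73.4 CPM per kb (SD, n = 5), above Plau at 40.3 ± 32.6 CPM per kb. There followed Timp2 (27.2), Mmp2 (25.7), Serpine2 (17.4), Plat (11.8), Mmp14 (11.7), Plaur (8.44) and Timp3 (5.08 CPM per kb), where Plau and Timp2 and each later pair except Plaur and Timp3 differed by less than the larger SD. In normal brain Timp2 was the highest at 14.7 ± 2.54 CPM per kb (SD, n = 3). Serpine2 (4.36), Mmp2 (3.99) and Timp3 (3.79) lay within their spread of each other, and the other 5 genes stood at 0.863 CPM per kb or below.

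The strand opposite the TIMP genes was read next. An exon of Syn3, which encodes a synapsin of synaptic vesicles, overlaps Timp3 by 1733 bases (chr10:86347774-86349506), all in the 3′ UTR of Timp3, and belongs to a Syn3 transcript annotated as a retained intron. Syn3 held 43.8 to 94.5 reads for each Timp3 read, and its order of groups was that of Timp3. It averaged 932 ± 90.9 CPM in PDGFB tumors (SD, n = 5), 2437 ± 431 CPM in RAS tumors (SD, n = 5) and 1764 ± 102 CPM in normal brain (SD, n = 3). The rows of Syn1 (opposite Araf) and Syn2 (opposite Timp4), the synapsins next to it in the family, instead stood highest in normal brain. Syn2 held 30.9 CPM in PDGFB tumors, 12.98 CPM in RAS tumors and 85.8 CPM in normal brain. How far these rows are reads of the synapsins depends on the strand setting and was not tested.

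Syn3 fell in PDGFB tumors against normal brain (log2 fold change -0.92 ± 0.15 SE, edgeR quasi-likelihood adjusted p = 9.27e-05) and against RAS tumors (-1.39 ± 0.14, adjusted p = 6.29e-07), with no overlap of groups in either. It rose in RAS tumors over normal brain by 0.47 ± 0.16 (adjusted p = 0.0157, edgeR), where the lowest RAS tumor (tumor 2, 1880 CPM) lay just above the highest normal brain (1879 CPM), and by 0.62 without RAS tumor 2. That call ended in 3 of 20 alternatives, which were the fit of the 2 groups alone and the fits without normal brain 2 or 3 (adjusted p 0.0584 to 0.0644, edgeR, within a range of 0.00127 to 0.0644 over all 20).

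Syn1, whose intron lies opposite Timp1 and whose own exons lie opposite Araf, did not share the pattern of Timp1. It averaged 21.9 ± 7.53 CPM in PDGFB tumors (SD, n = 5), 21.9 ± 7.46 CPM in RAS tumors (SD, n = 5) and 119 ± 18.6 CPM in normal brain (SD, n = 3). Syn1 fell against normal brain in PDGFB tumors (log2 fold change -2.44 ± 0.31 SE, adjusted p = 8.63e-06, edgeR) and in RAS tumors (-2.43 ± 0.32, adjusted p = 5.22e-06). Between PDGFB and RAS tumors its difference of -0.01 ± 0.32 did not pass the test (adjusted p = 0.985, edgeR).

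**Figure D3:**
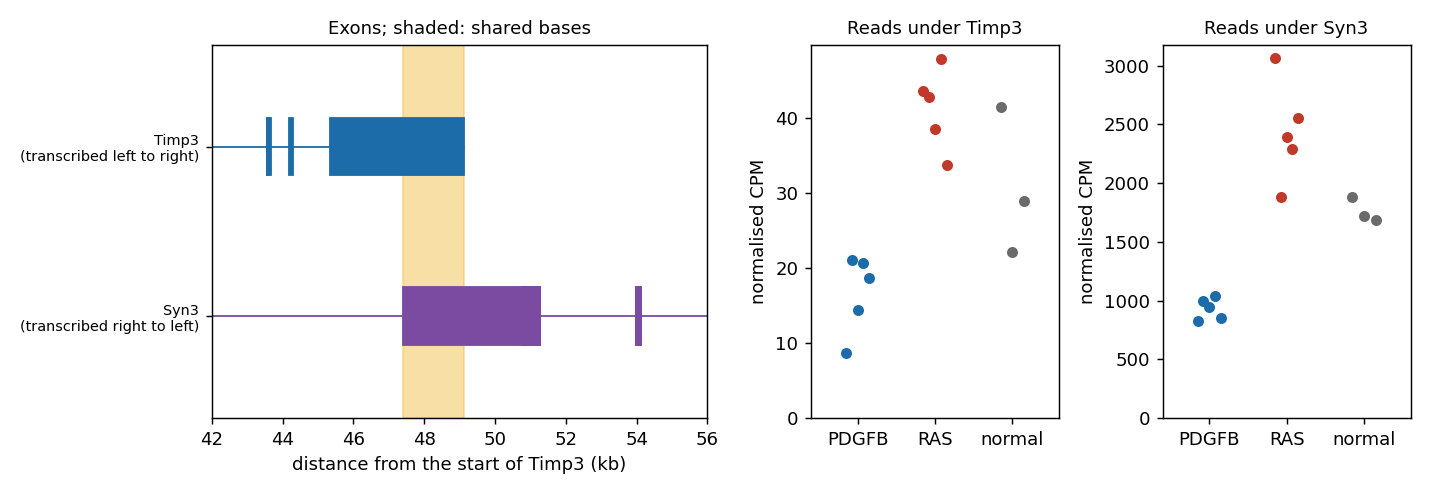
Left, exons of Timp3 and Syn3 by distance from the start of Timp3 in kb, with the 1733 shared bases shaded; middle and right, normalised CPM under Timp3 and under Syn3, a point for each library, with points in the colour of their group. PDGFB tumors are the lowest group for both genes, and the level under Syn3 is far above that under Timp3.

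Counted over the 9 genes, 5 were called higher and 2 lower in PDGFB tumors over normal brain at an adjusted p under 0.05, beside 45.3% of all tested genes called in either direction (22.2% higher, 23.1% lower). In RAS tumors over normal brain 8 were called higher and 0 lower, beside 56.1% of all tested genes (28.0% higher, 28.1% lower). In PDGFB tumors over RAS tumors 0 were called higher and 8 lower, beside 31.5% of all tested genes (15.1% higher, 16.4% lower). The choice of the genes used these contrasts, so nothing is read from the counts. Groups without overlap numbered 4 higher and 2 lower for PDGFB tumors and normal brain (51.0% of all genes, with 24.7% higher and 26.2% lower), 8 higher for RAS tumors and normal brain (52.4%, with 25.2% higher and 27.2% lower) and 8 lower for PDGFB and RAS tumors (19.7%, with 9.21% higher and 10.5% lower). The median log2 fold change of the 9 was 2.36 in PDGFB tumors over normal brain (0.08 over all tested genes), 3.70 in RAS tumors over normal brain (0.07) and -1.41 in PDGFB tumors over RAS tumors (0.06). Comparisons share the normal brain or a tumor group, so they are not independent of each other.

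**Figure D4:**
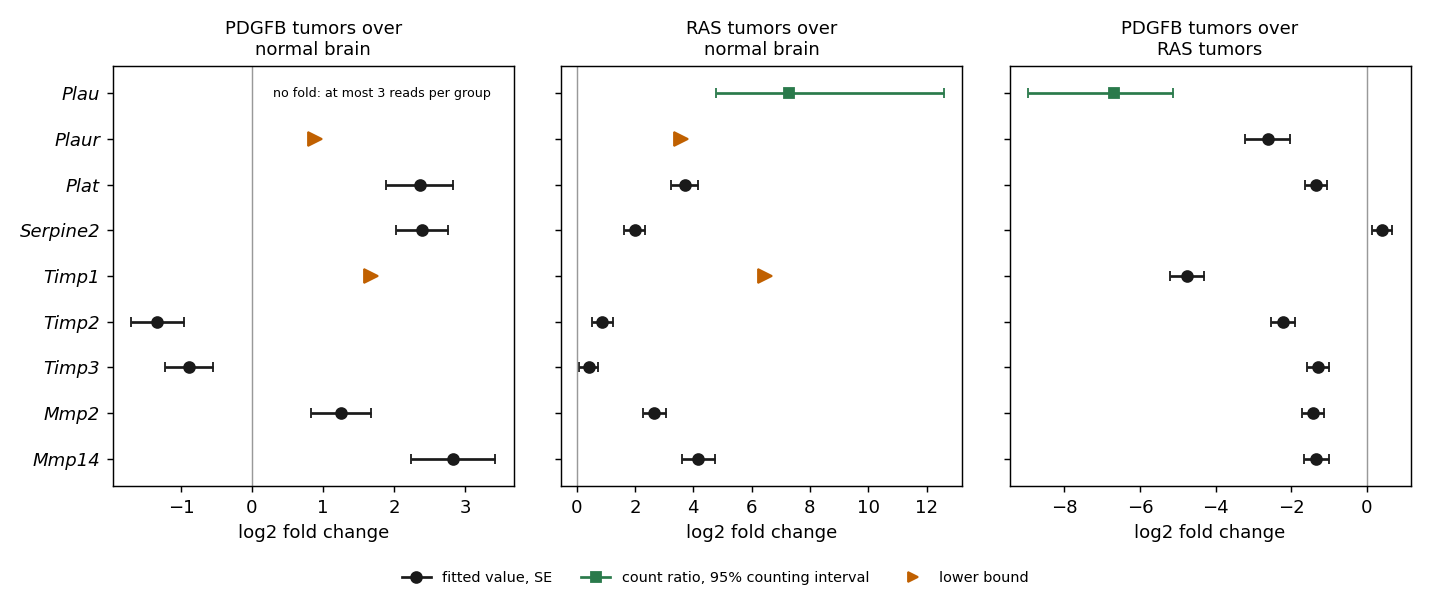
Log2 fold change of each of the 9 genes in the 3 comparisons, with circles for fitted values and their SE, squares for count ratios with their 95% counting interval, and triangles for lower bounds where normal brain had no read. These bounds take the tumor reads as exact. The values between PDGFB and RAS tumors lie below 0 for all genes except Serpine2 at 0.40.

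Across libraries, RAS tumor 2 was the lowest RAS tumor for 7 of the 9 genes (Plau, Plaur, Plat, Timp1, Timp2, Mmp2 and Mmp14), and RAS tumor 5 for Serpine2 and Timp3. RAS tumor 5 was the highest for Plau, Plaur, Plat and Mmp14. Summed over the 9 genes, the level was 271 to 443 CPM in PDGFB tumors, 561 to 922 CPM in RAS tumors, with RAS tumor 2 at the lower end, and 131 to 172 CPM in normal brain. The 3 groups of sums did not overlap.

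Markers of other cells were read in the same libraries. The 13 macrophage and microglia markers summed to 313 to 410 CPM in PDGFB tumors, 600 to 1081 CPM in RAS tumors and 393 to 426 CPM in normal brain, and all 13 had reads in both tumor groups (Ptprc had none in normal brain). Of the 7 tested, 3 rose and 1 fell in PDGFB tumors over normal brain (22.2% and 23.1% of all tested genes). In RAS tumors over normal brain 5 rose (28.0% of all), and 6 fell in PDGFB tumors against RAS tumors (16.4% of all). RAS tumor 2, at 891 CPM, was not the lowest of its group for this sum. It was the lowest for the neuron, pericyte and fibroblast sums. The 7 astrocyte markers summed to 601 CPM in RAS tumor 2 and 114 to 233 CPM in the other RAS tumors. They summed to 183 to 456 CPM in PDGFB tumors and 556 to 661 CPM in normal brain. The 6 mature oligodendrocyte markers summed to 893 CPM in RAS tumor 2 and 646 to 780 CPM in the other RAS tumors. They summed to 717 to 857 CPM in PDGFB tumors and 1670 to 2341 CPM in normal brain. The 6 pericyte and smooth muscle markers summed to 5.82 to 17.7 CPM in PDGFB tumors, 24.8 to 103.2 CPM in RAS tumors and 10.8 to 20.4 CPM in normal brain, with Myh11 at 0 reads in both tumor groups and Acta2 in normal brain.

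The 7 endothelial markers summed to 3.19 to 28.1 CPM in PDGFB tumors, 26.3 to 59.3 CPM in RAS tumors and 11.9 to 19.9 CPM in normal brain, where Cldn5 had no read. The 7 fibroblast and meninges markers summed to 182 to 277 CPM in PDGFB tumors, 153 to 470 CPM in RAS tumors and 24.2 to 28.9 CPM in normal brain, where Lum had no read. Of the 4 fibroblast and meninges markers tested, 1 rose in PDGFB tumors and 4 rose in RAS tumors over normal brain (22.2% and 28.0% of all tested genes). Between the tumors, 1 rose and 3 fell in PDGFB tumors over RAS tumors (15.1% and 16.4% of all). That list holds Pdgfra, which is also among the oligodendrocyte precursor markers. The neutrophil list of 6 stayed at 9.90 CPM or below in every library, and Ly6g and Elane had no read in any. The part that these cells have in the levels of the 9 genes was not tested.

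Of 126 other genes of proteolysis in 6 lists, 52 could be tested with edgeR's quasi-likelihood method. The lists were chosen with earlier results of these data known, so the shares below are a description. In RAS tumors over normal brain 37 rose and 8 fell (71.2% and 15.4% of those tested, against 28.0% and 28.1% of all genes). In PDGFB tumors over normal brain 17 rose and 11 fell (32.7% and 21.2%, against 22.2% and 23.1%). Between the tumors, 2 rose and 31 fell in PDGFB tumors over RAS tumors (3.85% and 59.6%, against 15.1% and 16.4%). Without RAS tumor 2, of 50 tested, 36 rose and 8 fell in RAS tumors over normal brain, and 4 rose and 32 fell in PDGFB tumors over RAS tumors. By list, that fit moved plasminogen partners to 12 higher in RAS tumors over normal brain and 11 lower between the tumors, and it gave 3 serine protease genes lower between the tumors. All 24 of the named list genes in RAS tumors over normal brain remained called without RAS tumor 2, as did 17 of 18 between the tumors, and Serpinf1 was then below the low-count filter. To be tested, a gene had to reach the low-count filter in as many libraries as the smallest group has, from any groups. A gene with reads in 1 group alone could therefore be tested. Of the 24 list genes named in the account of PDGFB tumors over normal brain and the 24 of RAS tumors over normal brain, all had groups without overlap except Serpinh1 in PDGFB tumors and Cst3 in RAS tumors, and so did 15 of 18 between tumors, all but Mmp19, Adamts1 and Serpinf1. Over all tested genes, the shares without overlap were 51.0%, 52.4% and 19.7% in these comparisons. The named genes had been picked from those called, by the largest fold changes. Nothing is therefore read from how many kept their call or had no overlap.

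**Figure D5:**
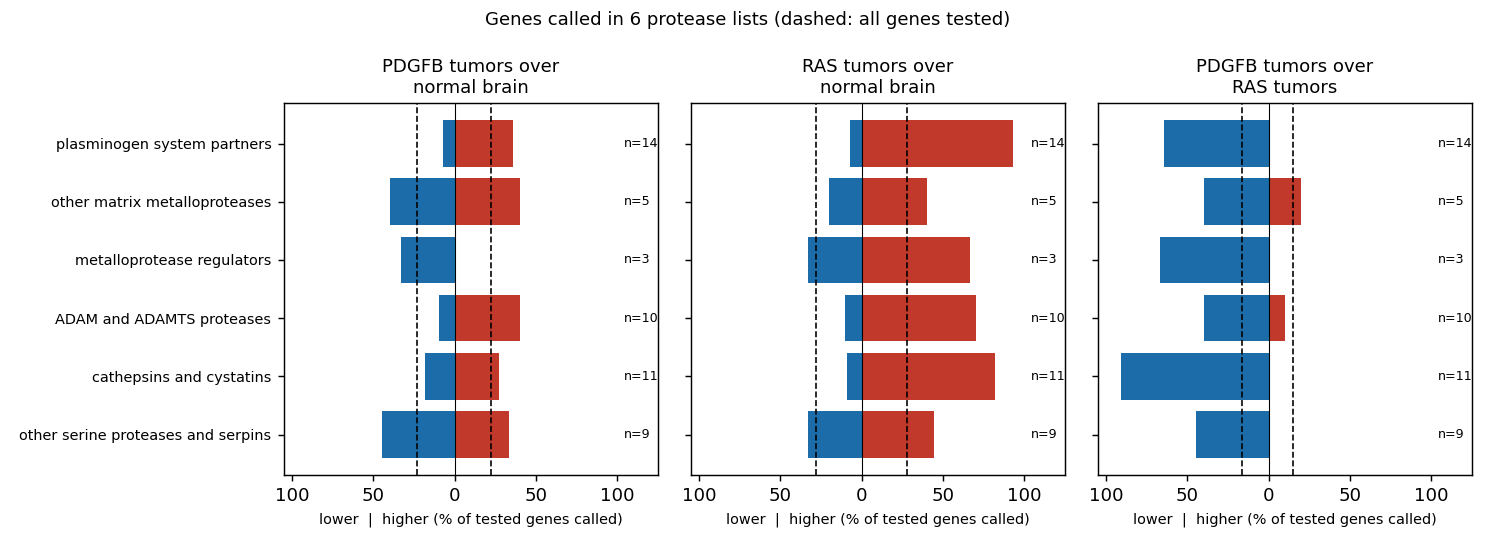
Percent of the tested genes of each of 6 lists that were called lower (left of 0) or higher (right of 0) in the 3 comparisons, with dashed lines for all tested genes. In RAS tumors over normal brain, 13 of the 14 tested plasminogen system partners and 9 of the 11 tested cathepsins and cystatins were called higher.

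Among 25 partners of the plasminogen system, 14 were tested, and 13 of them rose in RAS tumors over normal brain while 1 fell (median log2 fold change 3.74, against 0.07 over all genes). In PDGFB tumors over normal brain 5 rose, 1 fell and 8 did not pass (median 1.83, against 0.08), and in PDGFB tumors over RAS tumors 9 fell and 5 did not pass (median -1.89, against 0.06). Anxa2 (opposite Gm16144), whose protein assembles plasminogen and Plat on the cell surface, averaged 12.9 ± 6.07 CPM in PDGFB tumors (SD, n = 5), 226 ± 114 CPM in RAS tumors (SD, n = 5) and 3.72 ± 1.88 CPM in normal brain (SD, n = 3). It rose in RAS tumors over normal brain (log2 fold change 5.87 ± 0.61 SE, edgeR adjusted p = 6.84e-07) and fell in PDGFB tumors against RAS tumors (-4.11 ± 0.40, adjusted p = 1.05e-06).

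The integrin gene Itgb3 was at least 13.2-fold higher in RAS tumors than in normal brain, which had no read, and fell in PDGFB tumors against RAS tumors (log2 fold change -4.09 ± 0.62 SE). Igf2r, a lysosomal sorting receptor that also binds the urokinase receptor, had 154 reads in RAS tumors and 1 in normal brain, a ratio of 83.7 (95% counting interval 14.8 to 3327). Mrc2, a collagen receptor that associates with the urokinase receptor, fell in PDGFB tumors against RAS tumors (log2 fold change -3.81 ± 0.62). In PDGFB tumors over normal brain the genes that rose most were Itgb1 (2.67 ± 0.38), Fn1 (opposite Apol7d, 2.51 ± 0.63) and Itgav (opposite Gm13684, 2.11 ± 0.34). Mean levels in PDGFB and RAS tumors were 242 and 848 CPM for Itgb1, 35.9 and 196 CPM for Fn1, and 53.5 and 41.7 CPM for Itgav. Serpini1, or neuroserpin, which inhibits Plat in neurons, fell against normal brain in PDGFB tumors (-2.58 ± 0.40) and RAS tumors (-1.65 ± 0.38). The largest edgeR adjusted p among these calls was 0.00369, for Fn1.

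Only 5 of 19 other matrix metalloproteases were tested, and 2 rose and 1 fell in RAS tumors over normal brain (median -0.19), 2 rose and 2 fell in PDGFB tumors over normal brain (median -0.82), and 1 rose and 2 fell in PDGFB tumors over RAS tumors (median -0.17). Mmp15, a membrane-type protease with no gene opposite, was the one that rose in PDGFB tumors over RAS tumors. It averaged 112 ± 9.53 CPM in PDGFB tumors (SD, n = 5), 26.8 ± 18.7 CPM in RAS tumors (SD, n = 5) and 3.79 ± 2.18 CPM in normal brain (SD, n = 3). The log2 fold change was 4.85 ± 0.58 (SE, edgeR adjusted p = 4.13e-06) in PDGFB tumors over normal brain, 2.79 ± 0.63 (adjusted p = 9.53e-04) in RAS tumors over normal brain and 2.06 ± 0.35 (adjusted p = 2.21e-04) in PDGFB tumors over RAS tumors.

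The other metalloproteases called have an exon opposite another gene. Mmp19 (opposite Gm47093 and Tmem198b) rose over normal brain in PDGFB tumors (log2 fold change 1.91 ± 0.23 SE) and in RAS tumors (2.44 ± 0.24), and Mmp11 (opposite Chchd10) fell in PDGFB tumors (-3.02 ± 0.53) and in RAS tumors (-2.86 ± 0.53). Mmp24 (opposite BC029722) fell in PDGFB tumors against normal brain (-1.04 ± 0.16) and against RAS tumors (-0.84 ± 0.14). Mmp19 also fell in PDGFB tumors against RAS tumors (-0.53 ± 0.18, edgeR adjusted p = 0.0291), a call lost in 6 of 21 alternatives (adjusted p 0.00698 to 0.0851 over all).

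Of 8 metalloprotease regulators 3 were tested, and 2 rose and 1 fell in RAS tumors over normal brain, 1 fell in PDGFB tumors over normal brain, and 2 fell in PDGFB tumors over RAS tumors (medians 1.33, 0.18 and -1.15). Furin (opposite Gm44851), the convertase that cleaves the Mmp14 precursor, had 93 reads in RAS tumors and 2 in normal brain, a ratio of 25.3 (95% counting interval 6.80 to 212), and fell in PDGFB tumors against RAS tumors (log2 fold change -2.99 ± 0.48 SE). Bsg, a surface glycoprotein known to induce metalloproteases, rose in RAS tumors over normal brain (1.33 ± 0.28) and fell in PDGFB tumors against RAS tumors (-1.15 ± 0.23). Timp4 (opposite Syn2), the remaining family member, fell in RAS tumors against normal brain (-3.94 ± 0.91, edgeR adjusted p = 0.00366), by 5.91 without RAS tumor 2. Its fall in PDGFB tumors against normal brain (-2.54 ± 0.86, adjusted p = 0.0333, edgeR) was lost in 9 of 20 alternatives (adjusted p 5.28e-08 to 0.0898 over all).

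Of 29 ADAM and ADAMTS proteases, 10 were tested. In RAS tumors over normal brain 7 rose and 1 fell, in PDGFB tumors over normal brain 4 rose and 1 fell, and in PDGFB tumors over RAS tumors 1 rose and 4 fell (medians 1.53, 0.77 and -0.67). Adam12, a protease of muscle and mesenchyme, was the one higher in PDGFB tumors than in RAS tumors (log2 fold change 2.61 ± 0.49 SE), and its ratio of PDGFB tumors to normal brain, from 95 reads against 2, was 24.0 (95% counting interval 6.47 to 201). Adamts1, which cleaves proteoglycans, rose over normal brain in PDGFB tumors (2.95 ± 0.59) and in RAS tumors (4.05 ± 0.56). Adam9 rose in PDGFB tumors over normal brain (1.82 ± 0.44), and Adam17 (opposite Iah1), which sheds tumor necrosis factor, and Adam15 (opposite 4731419I09Rik) rose in RAS tumors over normal brain (2.24 ± 0.30 and 1.92 ± 0.64). Adam22, a receptor at synapses without protease activity, fell against normal brain in PDGFB tumors (-1.41 ± 0.32) and in RAS tumors (-1.69 ± 0.32). Adam15, Adamts1 and Adam17 fell in PDGFB tumors against RAS tumors (-2.00 ± 0.52, -1.10 ± 0.32 and -0.93 ± 0.23). The largest edgeR adjusted p among these calls was 0.0151, for Adam15 in RAS tumors over normal brain, a call that ended without normal brain 3 (adjusted p up to 0.0816).

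Of 17 cathepsins and cystatins, 11 were tested, and 9 rose and 1 fell in RAS tumors over normal brain (median 2.37), 3 rose and 2 fell in PDGFB tumors over normal brain (median 0.73), and 10 fell in PDGFB tumors over RAS tumors (median -1.72). Ctsl (opposite Gm47123), a lysosomal cysteine protease, averaged 39.2 ± 12.02 CPM in PDGFB tumors (SD, n = 5), 288 ± 116 CPM in RAS tumors (SD, n = 5) and 13.02 ± 4.65 CPM in normal brain (SD, n = 3). It rose over normal brain in PDGFB tumors (log2 fold change 1.59 ± 0.43 SE) and in RAS tumors (4.46 ± 0.42) and fell in PDGFB tumors against RAS tumors (-2.87 ± 0.30). Ctsc, which activates serine proteases of leukocytes, rose in PDGFB tumors (2.21 ± 0.60) and in RAS tumors (4.37 ± 0.52) over normal brain. Ctss, a cathepsin of microglia and macrophages, rose in PDGFB tumors over normal brain (1.91 ± 0.39), and Ctsh rose in RAS tumors over normal brain (3.69 ± 0.69).

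Ctsh and Cstb, a cystatin that inhibits cathepsins in the cell, fell in PDGFB tumors against RAS tumors (log2 fold change -2.23 ± 0.46 SE for Ctsh and -2.30 ± 0.46 for Cstb). Ctsa (opposite Neurl2 and Pltp) fell in PDGFB tumors against normal brain (-2.15 ± 0.25), as did Cst3, the secreted cystatin C (-1.29 ± 0.34). Cst3 also fell in RAS tumors against normal brain (-0.87 ± 0.34, edgeR adjusted p = 0.0364), but the groups overlapped and the call was lost in 5 of 21 alternatives (adjusted p 0.00378 to 0.131 over all).

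Of 28 other serine proteases and serpins, 9 were tested, and 4 rose and 3 fell in RAS tumors over normal brain (median 1.36), 3 rose and 4 fell in PDGFB tumors over normal brain (median -1.32), and 4 fell in PDGFB tumors over RAS tumors (median -0.70). Serpina3n, a serpin of reactive astrocytes, had 210 reads in PDGFB tumors, 317 reads in RAS tumors and 1 read in normal brain, ratios over normal brain of 106 (95% counting interval 18.9 to 4215) for PDGFB tumors and 172 (30.7 to 6827) for RAS tumors. Serpinh1, a chaperone of collagen without inhibitor activity, had 33 reads in PDGFB tumors, 280 reads in RAS tumors and 3 reads in normal brain, ratios over normal brain of 5.56 (1.75 to 28.4) for PDGFB tumors and 50.7 (17.2 to 247) for RAS tumors. The call of Serpinh1 in PDGFB tumors over normal brain (edgeR adjusted p = 0.0192) was lost in 3 of 20 alternatives (adjusted p 0.00242 to 0.100 over all).

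Htra1, a secreted serine protease, rose in RAS tumors over normal brain (log2 fold change 1.52 ± 0.43 SE). Serpinh1, Htra1 and Serpinf1, a serpin that restrains vessel growth, fell in PDGFB tumors against RAS tumors (-3.16 ± 0.38, -3.14 ± 0.41 and -2.69 ± 0.62). The 3 testican proteoglycans fell against normal brain: the log2 fold change in PDGFB tumors and in RAS tumors was -2.68 ± 0.64 and -1.94 ± 0.60 for Spock1, -2.49 ± 0.52 and -3.69 ± 0.56 for Spock2, and -3.49 ± 0.74 and -4.12 ± 0.80 for Spock3. Without RAS tumor 2, Spock2 stood at -4.28 in RAS tumors over normal brain, and the other RAS tumors held no Spock3 read. The call of Spock1 in RAS tumors ended without normal brain 2 (edgeR adjusted p 0.00124 to 0.0583 over 21 alternatives). Serpinb6a (opposite 1110046J04Rik, Nqo2 and Ripk1) rose in PDGFB tumors over normal brain (0.80 ± 0.25, edgeR adjusted p = 0.0134), a call lost without PDGFB tumor 5 or normal brain 2 (adjusted p up to 0.0635).

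The genes most like each of the 9 in level across the 13 libraries were found by Pearson's r on log2 CPM with a prior count of 2, among 5917 candidates. The libraries fall into 3 groups, so r follows the group means first and is given as a description. Plau was most like Slco2a1 (opposite n-R5s89), Lrsam1 (opposite Fam129b and Rpl12) and Grem1 (r = 0.98 for each). Plaur was most like Rps6kb2 (opposite Coro1b and Ptprcap, 0.97), the actin-binding gene Pfn1 (0.97) and S100a6 (0.96), and Plat had Bmp1 (0.97) and Hmga2 (opposite 1700006J14Rik, 0.96) among its 3. Timp1 was most like Emp1 (0.98), Tm4sf1 (0.97) and Anxa2 (opposite Gm16144, 0.97).

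Serpine2, which is higher in both tumors, was most like Mlst8 (opposite Bricd5, r = 0.97), Fgfrl1 (0.95) and D10Wsu102e (opposite Aldh1l2, 0.95). Mmp2 was most like Ier3, Bmp1 and Spp1 (0.95 each), and Mmp14 like Pdia6 (opposite Atp6v1c2, 0.97), Clic1 (0.96) and Phox2a (opposite Inppl1, 0.96). Timp2 was most like Stard5 (opposite Il16, 0.95), Nefl (opposite Nefm, 0.94) and Ube2ql1 (0.94), and Timp3 like Socs5 (0.89), Nefm (opposite Nefl, 0.88) and Ralgapb (0.88). With a prior count of 0.5, the genes shared among the top 3 numbered 3 for Timp2, 2 each for Plau, Plat, Serpine2, Timp1 and Timp3, 1 each for Plaur and Mmp14, and 0 for Mmp2.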

How the data were processed

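The deposited table holds raw counts, whole reads per gene for 13 libraries, with no normalization by the authors. Per the labels, polyadenylated RNA from Trizol extracts went into TruSeq libraries. Reads were handled with STAR 2.7.9a and fastp 0.22.0 on the GRCm38 build, per the submitters' processing notes. The annotation and the strand setting are not given in the sources used here. Of the 13952738 to 15607754 reads of a library, 2.05% to 4.89% were unmapped, 5.40% to 7.35% multimapping, 84.5% to 87.3% in no gene and 0.0516% to 0.0805% ambiguous. These stayed out of totals and tests.

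Symbols, exons and strands were matched to GENCODE M21, which lacks 3333 of the identifiers. edgeR 4.0.16 (R 4.3.3) tested 7722 genes that passed filterByExpr (minimum count 10, minimum total 15) with TMM factors and a quasi-likelihood model of 3 groups over all 13 libraries, two-sided, with Benjamini-Hochberg adjustment over all genes. A gene was called at an adjusted p under 0.05. Counting intervals are exact at 95%, and they and the limit of 3 reads for a group with none cover counting error only. A fold from that limit takes the reads of the other group as exact. No 2 libraries of a group agreed within sampling noise (chi-square per degree of freedom at least 1.9).

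The 9 genes and the lists were chosen with earlier results of these data known. Named were the 9 genes, the genes opposite them, up to 3 higher and 3 lower called genes of at least 10 CPM per list and comparison, and the 3 genes most alike in level. Results of some genes are left out of the text, though counts include them. As alternatives, the scale was set by library totals or by median-of-ratios factors, the filter was dropped or loosened to 1 CPM in 3 libraries, and limma-voom (limma 3.58.1) and DESeq2 1.42.0 replaced the test. Others were the 2 compared groups alone, genes with no exon opposite an exon, leaving out each library, and the replicate number as a block.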

Additional observations from a re-analysis of the deposited data

Results flagged for a closer look

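Of 94 groups of values checked, 11 had a library farther from the rest than Dixon's 95% limit allows. For independent, normally distributed values chance alone flags about 1 in 20 groups. These values are CPM, some from few reads, and the groups share libraries, so that rate need not hold here. Plau in RAS tumor 5 stood at 230.1 CPM, against 39.6 to 87.5 CPM in the other RAS tumors, and Mmp14 in the same library at 116.7 CPM, against 51.2 to 65.5 CPM. Mmp2 in PDGFB tumor 2 stood at 66.5 CPM, against 21.8 to 25.8 CPM in the other PDGFB tumors.

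In RAS tumor 2, Timp4 (opposite Syn2) stood at 266 CPM, against 13.2 to 17.6 CPM in the other RAS tumors, Mmp11 (opposite Chchd10) at 663 CPM, against 101 to 247 CPM, and Spock3 at 6.60 CPM, against 0 in each of the others. In the remaining RAS tumors, Adam9 was 47.9 CPM in tumor 4 (20.3 to 26.5 CPM in the others), Igf2r 29.9 CPM in tumor 3 (51.2 to 59.2 CPM) and Serpinf1 69.4 CPM in tumor 5 (8.78 to 24.8 CPM). Among PDGFB tumors, Furin was 9.07 CPM in tumor 2 (1.59 to 3.12 CPM in the others) and Serpina3n 85.4 CPM in tumor 3 (57.4 to 63.8 CPM).

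Timp2 averaged 22.7 CPM in PDGFB tumors, 106 CPM in RAS tumors and 57.2 CPM in normal brain, and Syn3 932 CPM in PDGFB tumors, 2437 CPM in RAS tumors and 1764 CPM in normal brain. Every PDGFB tumor lay below every normal brain for both genes and every RAS tumor above (for Syn3, RAS tumor 2 at 1880 CPM and normal brain 1 at 1879 CPM), and the difference between these opposite changes is that of PDGFB tumors over RAS tumors. For Syn3 it was -1.39 ± 0.14 on the log2 scale (SE, edgeR adjusted p = 6.29e-07), and for Timp2, a member chosen by its levels, it was -2.22 ± 0.32 and is given with no test.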

How the results depend on the processing

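Whether tumors with the same replicate number share a litter or a day is not stated. Deviations of same-numbered tumors correlated at 0.14, -0.018, -0.027, -0.128 and 0.081, and only number 1 matched itself best. Such low values cannot exclude a shared litter or day, since no correlation that sharing would give is known here. With the replicate block, 798 genes were called higher and 888 lower in PDGFB tumors over RAS tumors, against 1169 and 1264. The block gave 1 regulator higher (against 0), 1 other metalloprotease lower (against 2), 2 ADAM and ADAMTS genes lower (against 4) and 2 serine protease genes lower (against 4). It ended the calls of Mmp19 and Adamts1 between tumors.

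Among genes with no exon opposite an exon, which are fewer, 738 were called higher and 634 lower in PDGFB tumors over normal brain (against 1714 and 1787), 909 and 822 in RAS tumors over normal brain (against 2160 and 2173) and 486 and 431 in PDGFB tumors over RAS tumors (against 1169 and 1264). There, the lists together gave 7 lower in PDGFB tumors over normal brain, 24 higher in RAS tumors over normal brain and 18 lower in PDGFB tumors over RAS tumors. By list, that setting gave for PDGFB tumors over normal brain 1 other metalloprotease higher and 0 lower, 0 regulators lower and 1 cathepsin lower. It gave for RAS tumors over normal brain 1 other metalloprotease higher and 0 lower, 1 regulator higher and 0 lower, and 3 ADAM and ADAMTS genes higher. It gave for PDGFB tumors over RAS tumors 0 other metalloproteases, 1 regulator, 1 ADAM gene and 6 cathepsins and cystatins lower.

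With no filter and with the looser filter, the other metalloproteases higher in PDGFB tumors over normal brain numbered 4 and 4, those higher in RAS tumors 6 and 4 and those lower in PDGFB tumors against RAS tumors 4 and 4. ADAM and ADAMTS genes lower against normal brain numbered 2 and 2 in each tumor, those higher in PDGFB tumors over RAS tumors 3 and 3, and regulators lower in PDGFB tumors over normal brain 0 and 0. No filter gave 7 serine protease genes higher in RAS tumors over normal brain and 1 higher between tumors, and the looser filter 2 plasminogen partners lower in RAS tumors. The lists together had 5 and 4 genes higher between tumors, and 4 by limma-voom, which gave 1 regulator and 1 serine protease gene. limma-voom called 3 of the 9 genes higher in PDGFB tumors over normal brain (against 5), and library totals, both filters and the genes with no exon opposite each called 1 lower (against 2). Library totals gave 1 other metalloprotease lower between tumors, moved the median of all genes to 0.23, 0.11 and 0.17 on the log2 scale and the calls in PDGFB tumors over normal brain to 2038 higher and 1533 lower (against 1714 and 1787), while median-of-ratios factors gave 1534 and 1944. Syn3 in RAS tumors over normal brain was 0.43 with the 2 groups alone. Syn1 between tumors turned to 0.0959, 0.0321 and 9.36e-05 under library totals, no filter and the looser filter, never past the threshold.

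Leaving out each library in turn gave log2 fold changes over normal brain of 2.13 to 2.87 for Plat and 0.73 to 1.36 for Mmp2 in PDGFB tumors, and of 3.50 to 4.23 for Plat and 0.39 to 0.62 for Syn3 in RAS tumors. Between PDGFB and RAS tumors it gave -3.41 to -2.34 for Plaur, -1.89 to -1.30 for Mmp2 and -0.16 to 0.14 for Syn1. Of the 9 genes, 1 to 2 were called lower in PDGFB tumors over normal brain (1 when PDGFB tumor 1 or 3, or else normal brain 1 or 3, was left out) and 0 to 1 higher in PDGFB tumors over RAS tumors (1 without RAS tumor 3). The lists together gave 2 to 4 genes higher between tumors (4 without RAS tumor 2). In PDGFB tumors over normal brain, 0 to 1 regulators were called higher (1 without normal brain 1) and 0 to 1 lower (0 when any normal brain or PDGFB tumor 1, 2, 3 or 5 was left out). In RAS tumors over normal brain, 0 to 1 cathepsins were called lower (0 without RAS tumor 1, 3 or 4 or normal brain 1 or 3). Between the tumors, 0 to 1 regulators and 0 to 1 serine protease genes were called higher (1 each without RAS tumor 2), 1 to 2 other metalloproteases lower (1 without PDGFB tumor 1 or 3 or RAS tumor 3) and 2 to 4 serine protease genes lower (2 without RAS tumor 4). The depth of 529162 to 643055 gene reads let 52 of 126 list genes be tested, and a group with 0 reads is known only to its limit of 3 reads.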
